A study of Homo sapiens with 6 samples.

Results

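The genes described here encode the RNA polymerases, their general transcription factors, the Mediator coactivator and the kinases that act on RNA polymerase II (Pol II). Members were taken by symbol: those beginning with POLR, GTF2 or GTF3, or with TAF or MED and a digit, plus CDK7, CDK8, CDK9, CCNT1, CCNT2 and TBP. That gave 61 of the 6141 rows of 1 gene symbol in the authors' deposited table, and 60 of them were abundant enough to test. The table has 6339 rows in all.

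The 3 AI-10-49 libraries came from ME-1 cells exposed to 1 µM AI-10-49 during 6 h of culture. The 3 DMSO libraries came from ME-1 cells given the solvent DMSO for the same time. AI-10-49 is a small molecule that blocks the contact of the fusion protein CBFβ-SMMHC with RUNX1. ME-1 is a human leukaemia cell line that carries inv(16), the rearrangement that makes this fusion, and all 6 libraries share it; as 1 line it stands for 1 leukaemia. Per the series' design text each treatment had 3 separate experiments. Of 14 myeloid marker genes listed, 8 had a row, and their summed level was 199 to 288 FPKM with AI-10-49, against 424 to 469 FPKM with DMSO; AZU1, which encodes a neutrophil granule protein, stood at 34.2 FPKM with AI-10-49, against 44.2 FPKM with DMSO. Of 3 T cell and 3 B cell markers, 2 and 1 had a row; the T cell sum was 16.9 to 17.2 FPKM with AI-10-49, against 32.6 to 34.3 FPKM with DMSO, and CD79A was 0.635 to 1.12 FPKM with AI-10-49, against 1.56 to 3.06 FPKM with DMSO. Of 3 erythroid, 3 epithelial and 3 fibroblast markers looked up, 0 had a row. The part of these markers in the results was not tested.

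RNA polymerase I (Pol I) makes the large ribosomal RNA precursor in the nucleolus, Pol II makes messenger RNA, and RNA polymerase III (Pol III) makes transfer RNAs and other small RNAs. Several small subunits are common to these nuclear enzymes, and a separate single-subunit polymerase transcribes mitochondrial DNA. General factors place each polymerase on its promoters, Mediator links activators to Pol II, and the kinase P-TEFb releases paused Pol II into elongation.

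Promoter stretches of members that fell and members that rose are printed so that their letters can be set beside the changes. RefSeq promoter windows (250 bases before to 50 after a start, GRCh38.p14, which is not the hg19 build of the authors' processing) were matched by symbol for 45 of the 61 members. The E-box CACGTG, the sequence that MYC binds with MAX and a palindrome that reads alike on both strands, was present in 7 of 23 members with a window that fell (30.4%) and in 6 of 20 that rose (30%). Among all rows of the table the shares were 16.7% of genes that fell and 11.6% of genes that rose, and among all genes with a window 8.77%. Printed first are 3 members that fell and then 3 that rose, those of largest change whose printed stretch lies wholly before the start. The E-box is in capitals.
GTF3C6 (chr6:110958537-110958596, plus strand): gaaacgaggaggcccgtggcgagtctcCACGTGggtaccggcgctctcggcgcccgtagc
GTF3C4 (chr9:132669973-132670032, plus strand): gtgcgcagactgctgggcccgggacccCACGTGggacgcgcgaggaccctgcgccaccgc
TAF4B (chr18:26226235-26226294, plus strand): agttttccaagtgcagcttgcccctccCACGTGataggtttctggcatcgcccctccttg
CDK7 (chr5:69234754-69234813, plus strand): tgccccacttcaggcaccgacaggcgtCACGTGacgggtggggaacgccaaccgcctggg
CDK8 (chr13:26253902-26253961, plus strand): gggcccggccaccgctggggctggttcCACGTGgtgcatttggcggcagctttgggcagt
CCNT1 (chr12:48716909-48716957, minus strand): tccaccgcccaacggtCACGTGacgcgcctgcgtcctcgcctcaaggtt

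The ETS site CCGGAAGT, searched on both strands, was in 10 of 23 members that fell (43.5%) and in 6 of 20 that rose (30%), against 8.39% of all table genes that fell, 11.2% of those that rose and 4.95% of all genes with a window. Among polymerase subunit genes that fell, 5 of 11 with a window held it (45.5%). Their stretches follow, with the site or its reverse complement in capitals.
POLR1B (chr2:112542396-112542455, plus strand): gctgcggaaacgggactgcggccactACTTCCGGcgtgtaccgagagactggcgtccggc
POLR1C (chr6:43516935-43516994, plus strand): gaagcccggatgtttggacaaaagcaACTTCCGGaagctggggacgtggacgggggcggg
POLR2F (chr22:37953632-37953691, plus strand): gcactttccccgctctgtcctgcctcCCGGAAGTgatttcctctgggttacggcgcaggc
POLRMT (chr19:633598-633657, minus strand): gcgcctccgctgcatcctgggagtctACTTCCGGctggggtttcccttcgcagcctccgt
POLR3A (chr10:78029573-78029632, minus strand): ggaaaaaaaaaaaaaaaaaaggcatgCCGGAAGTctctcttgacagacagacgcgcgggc

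The NRF1 site was in 8 of 23 members that fell (34.8%) and in 5 of 20 that rose (25%), against 13.2% of all table genes that fell, 12.8% of those that rose and 6.98% of all genes with a window. The RUNX site TGTGGTT was in 1 of 23 that fell (4.35%) and in 2 of 20 that rose (10%), against 4.46% of all table genes that fell, 5.09% of those that rose and 5.23% of all genes with a window. Of the 11 polymerase subunit genes with a window that fell, 5 held the NRF1 site (45.5%), 2 the E-box (18.2%) and 1 the RUNX site (9.09%). The NRF1 and RUNX sites were searched on both strands, matches to different motifs may overlap, and these shares are descriptions without a test.

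Most polymerase genes were lower with AI-10-49 and most Mediator genes were higher. Of 19 polymerase subunit genes, 17 were lower with AI-10-49, 1 was higher and 1 did not pass the test, with a median log2 fold change of -0.71. Of 13 Mediator genes, CDK8 included, 11 were higher and 2 lower, with a median of 0.44. These are the genes with a row, out of 35 polymerase subunit genes and 31 Mediator genes listed. Over all complexes 122 genes were listed, against the 61 members. Counts by complex therefore cover only the genes with a row, and most complexes are seen in part. Over the whole family 26 genes rose, 30 fell and 4 did not pass. In the table as a whole 95.3% of tested rows passed (46.2% higher, 49.1% lower) and the median was -0.28, so the number of members that passed is near the background and only their direction is described. An FPKM value is a count of sequenced fragments set against transcript length and against all fragments mapped in that library. Changes were tested with limma on log2(FPKM + 1) over all 6230 tested rows, and the threshold was a Benjamini-Hochberg adjusted p under 0.05. In a bulk sample, fewer cells of a type and less RNA per cell cannot be told apart.

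**Figure D1:**
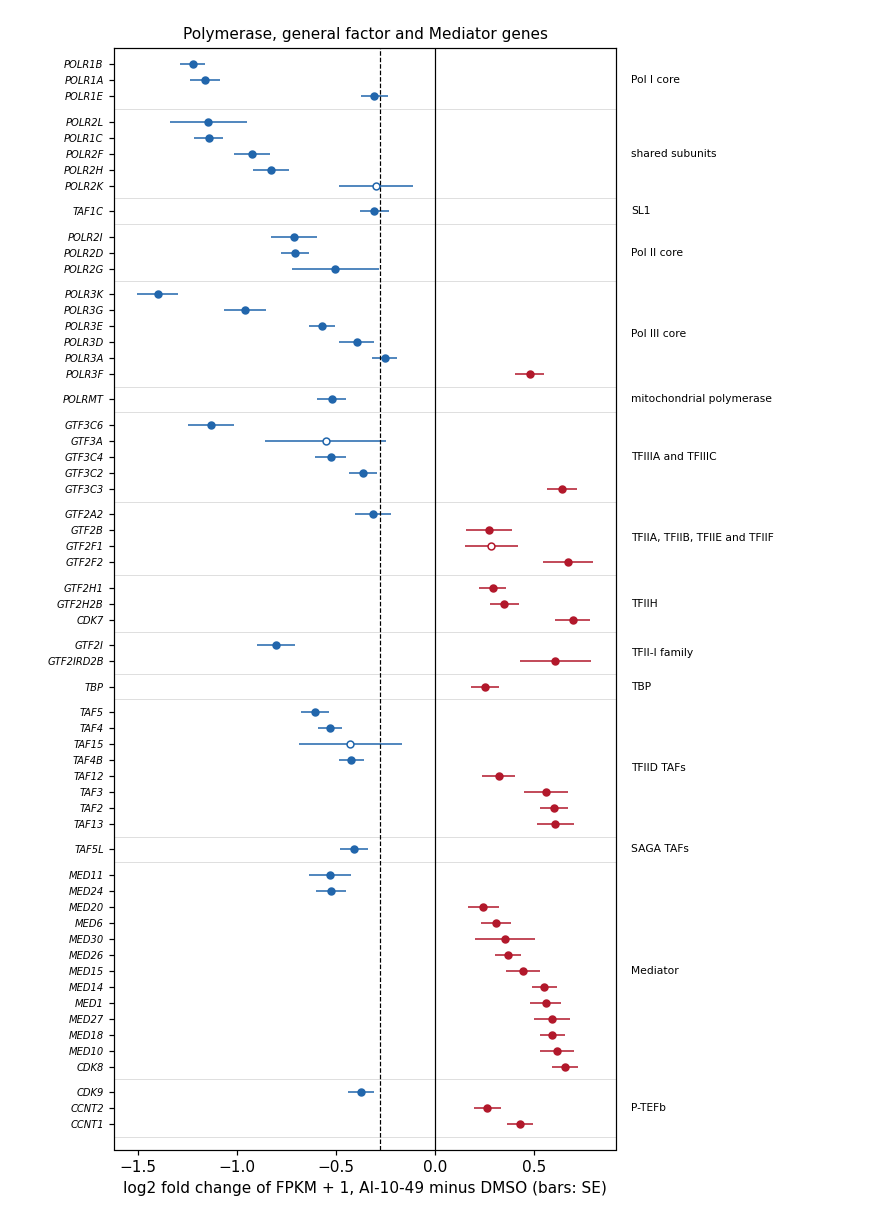
Log2 fold change of FPKM + 1, AI-10-49 minus DMSO (horizontal axis, bars are SE), of tested members grouped by complex, with rises in red, falls in blue and members not past the threshold as open circles. The dashed line marks the median of all rows (-0.28); most polymerase subunit genes are filled blue points and 11 of 13 Mediator genes are filled red points.

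The groups did not overlap in 56 of the 60 tested members, against 96.2% of all tested rows. AI-10-49 replicate 2 read low in many members. All 7 members with a DMSO mean of at least 70 FPKM were lowest in that library among the AI-10-49 libraries, at 0.547 to 0.879 times the mean of the others. Of the other 54 members, 35 were also lowest in that library, and its ratio to the mean of the others ranged from 0.438 to 1.36. Without it 28 members rose and 32 fell, against 46.4% and 51.0% of all rows tested that way (97.4% in either direction). The 28 include GTF2IRD2, which is outside the 60 but was abundant enough to test in that fit, and POLR2K did not pass. The 7 abundant members are GTF3A, TAF15, POLR2G, POLR2L, POLR2K, GTF3C6 and POLR3K, and their values without that library are given beside them. Quantile normalization moved the median of all rows by 0.22 to -0.06; under it 27 members rose and 29 fell (46.9% and 48.0% of all rows, 94.9% in either direction), no called member changed sign, and POLR2K, GTF3A and TAF15, which had not passed, had positive values.

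Transcripts of the catalytic core of Pol I were lower with AI-10-49. POLR1A, which encodes the largest subunit, had 12.4, 11.4 and 10.7 FPKM with AI-10-49, against 26.6, 29.2 and 24.9 FPKM with DMSO. POLR1B, the second largest subunit, had 14.6, 14.5 and 14.8 FPKM with AI-10-49, against 35.04, 35.6 and 35.96 FPKM with DMSO. In both genes every AI-10-49 library lay below every DMSO library, and the means were 2.34-fold and 2.42-fold lower. Their log2 fold changes were -1.16 ± 0.08 (SE, limma adjusted p = 2.48e-08) and -1.22 ± 0.06 (SE, limma adjusted p = 2.31e-09). POLR1E, a peripheral Pol I subunit, moved less, with 22.5, 22.6 and 21.7 FPKM with AI-10-49, against 28.4, 25.9 and 29.1 FPKM with DMSO (log2 fold change -0.31 ± 0.07 SE, limma adjusted p = 0.000991). TAF1C, a subunit of the SL1 factor that recruits Pol I to ribosomal DNA, had 7.07, 7.09 and 6.97 FPKM with AI-10-49, against 9.05, 9.74 and 8.12 FPKM with DMSO (log2 fold change -0.31 ± 0.07 SE, limma adjusted p = 0.00156). All 3 Pol I core genes with a row and TAF1C therefore fell, by amounts that ranged from -0.31 to -1.22 on the log2 scale. TBP, which Pol I also uses, rose and is given below.

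Subunits that Pol I and Pol III or all nuclear polymerases have in common fell in 4 of 5 genes. POLR1C, which Pol I and Pol III use, had 22.7, 22.6 and 22.1 FPKM with AI-10-49, against 50.2, 49.9 and 52.1 FPKM with DMSO. These libraries are far apart between treatments and close within them, and the log2 fold change was -1.14 ± 0.07 (SE, limma adjusted p = 1.65e-08). POLR2L, a small subunit of all nuclear polymerases, had 52.6, 29.9 and 53.7 FPKM with AI-10-49, against 89.8, 96.2 and 109.6 FPKM with DMSO. AI-10-49 replicate 2 was the lowest value, and the log2 fold change of -1.14 ± 0.20 (SE, limma adjusted p = 0.000127) was -0.87 without that library. POLR2F and POLR2H, also used by all nuclear polymerases, had 12.1, 9.88 and 11.9 FPKM and 27.1, 24.1 and 26.9 FPKM with AI-10-49, against 21.1, 20.5 and 25.5 FPKM and 42.4, 46.5 and 51.97 FPKM with DMSO. Their groups did not overlap, with log2 fold changes of -0.92 ± 0.09 and -0.82 ± 0.09 (SE, limma adjusted p = 1.22e-06 and 2.54e-06). POLR2K, a small zinc-binding subunit of all nuclear polymerases, did not pass. It had 75.96, 46.7 and 77.7 FPKM with AI-10-49, against 77.1, 75.5 and 88.7 FPKM with DMSO, so AI-10-49 replicates 1 and 3 lay within the DMSO values and replicate 2 below them (log2 fold change -0.30 ± 0.19 SE, limma adjusted p = 0.140; -0.06 and adjusted p = 0.425 without AI-10-49 replicate 2).

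The subunits used by Pol II alone that have a row of their own are POLR2D, POLR2G and POLR2I, and all 3 fell. POLR2D, which forms the stalk of the enzyme with POLR2G, had 21.5, 19.8 and 21.9 FPKM with AI-10-49, against 33.3, 35.03 and 36.6 FPKM with DMSO (log2 fold change -0.71 ± 0.07 SE, limma adjusted p = 1.20e-06). POLR2G had 92.6, 57.3 and 96.3 FPKM with AI-10-49, against 107, 111 and 124 FPKM with DMSO. Its groups did not overlap, but AI-10-49 replicate 2 was far below the others, and the log2 fold change of -0.50 ± 0.22 (SE, limma adjusted p = 0.0427) was -0.26 (limma adjusted p = 0.00504) without that library and did not pass when any single DMSO library was left out (limma adjusted p = 0.0858 to 0.143) or under quantile normalization (-0.04, limma adjusted p = 0.450). POLR2I, a zinc-binding subunit, had 19.5, 16.9 and 18.4 FPKM with AI-10-49, against 28.9, 25.5 and 38.4 FPKM with DMSO (log2 fold change -0.71 ± 0.12 SE, limma adjusted p = 9.00e-05). The largest Pol II subunit, POLR2A, was not analysed here.

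**Figure D2:**
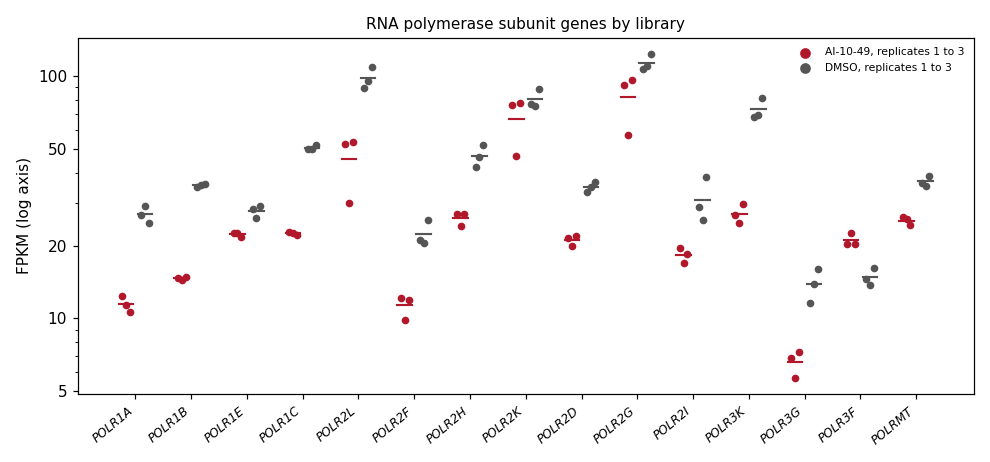
FPKM (vertical log axis) of 15 polymerase subunit genes in the 3 AI-10-49 libraries (red, left) and the 3 DMSO libraries (grey, right), with horizontal lines at the group means. POLR1A, POLR1B, POLR1C and POLR3K show well separated groups, POLR2K shows overlapping ones, and POLR3F alone among those drawn has its AI-10-49 libraries above its DMSO libraries.

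Pol III genes fell in 6 of 7 core subunits. POLR3K, a small subunit involved in termination, had 26.8, 24.8 and 29.7 FPKM with AI-10-49, against 68.03, 69.5 and 81.7 FPKM with DMSO. The groups stood far apart, with means of 27.1 ± 2.45 FPKM with AI-10-49 and 73.1 ± 7.51 FPKM with DMSO (SD, n = 3 each) and a log2 fold change of -1.40 ± 0.10 (SE, limma adjusted p = 7.33e-08; -1.34 without AI-10-49 replicate 2). POLR3G, a subunit known to be high in stem and tumour cells, had 6.89, 5.69 and 7.26 FPKM with AI-10-49, against 11.6, 13.9 and 16.05 FPKM with DMSO (log2 fold change -0.96 ± 0.11 SE, limma adjusted p = 2.80e-06). Its DMSO libraries were spread, yet all lay above the AI-10-49 libraries.

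Smaller falls came from POLR3E (-0.57), POLR3D (-0.39) and POLR3A (-0.25), which encodes the largest Pol III subunit; these are log2 fold changes, and the highest adjusted p of these 3 was 0.00245 (limma). The exception among core subunits with a row of their own was POLR3F, of the subcomplex that opens promoters. It had 20.2, 22.5 and 20.3 FPKM with AI-10-49, against 14.5, 13.7 and 16.1 FPKM with DMSO, a rise without overlap (log2 fold change 0.48 ± 0.07 SE, limma adjusted p = 4.94e-05). A row that POLR3C shares with NUDT17 also rose and is given at the end.

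The assembly factors of Pol III went in both directions, as did all tested rows (46.2% higher and 49.1% lower). TFIIIC binds the internal promoters of transfer RNA genes, and of its 4 measured subunits GTF3C6, GTF3C4 and GTF3C2 fell while GTF3C3 rose. GTF3C6 had 34.8, 29.8 and 39.8 FPKM with AI-10-49, against 73.6, 77.2 and 79.5 FPKM with DMSO (log2 fold change -1.13 ± 0.12 SE, limma adjusted p = 1.36e-06; -1.02 without AI-10-49 replicate 2). GTF3C3 had 22.97, 21.9 and 24.03 FPKM with AI-10-49, against 15.9, 13.1 and 14.2 FPKM with DMSO (log2 fold change 0.64 ± 0.08 SE, limma adjusted p = 4.99e-06). These subunits of the same complex thus lay -1.13 and 0.64 from their DMSO levels on the log2 scale, both without overlap. GTF3C4, at 5.95, 6.05 and 4.95 FPKM with AI-10-49, against 8.62, 8.31 and 8.71 FPKM with DMSO, and GTF3C2 had log2 fold changes of -0.53 ± 0.08 and -0.36 ± 0.07 (SE, limma adjusted p = 3.96e-05 and 0.000343). GTF3A, which encodes TFIIIA, the factor that recruits TFIIIC to the small ribosomal RNA genes, was the most abundant member. It had 134, 74.8 and 134 FPKM with AI-10-49, against 155, 154 and 178 FPKM with DMSO, with every AI-10-49 library below every DMSO library. It did not pass (log2 fold change -0.55 ± 0.31 SE, limma adjusted p = 0.0985). Without AI-10-49 replicate 2 it was -0.27 (limma adjusted p = 0.00620). Under quantile normalization it was 0.019 (limma adjusted p = 0.754), and -0.024 (limma adjusted p = 0.496) with that library also left out.

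POLRMT, the mitochondrial RNA polymerase, fell as well. It had 26.2, 25.7 and 24.3 FPKM with AI-10-49, against 36.4, 35.4 and 38.8 FPKM with DMSO, groups that did not overlap (log2 fold change -0.52 ± 0.07 SE, limma adjusted p = 2.10e-05).

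Of 16 genes for TBP, TFIID TAFs, TFIIA, TFIIB, TFIIF and TFIIH, 10 were higher, 4 lower and 2 did not pass, with a median log2 fold change of 0.29. TBP, which is used by all nuclear polymerases to start transcription, had 23.9, 23.2 and 24.6 FPKM with AI-10-49, against 18.2, 20.8 and 20.6 FPKM with DMSO. The change was small and the groups were separate (log2 fold change 0.25 ± 0.07 SE, limma adjusted p = 0.00379).

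TFIIF, which binds Pol II and brings it to the promoter, was measured through both subunits. GTF2F2, the small subunit, had 54.4, 41.6 and 56.9 FPKM with AI-10-49, against 34.1, 26.7 and 33.5 FPKM with DMSO (log2 fold change 0.67 ± 0.13 SE, limma adjusted p = 0.000247). GTF2F1, the large subunit, had 67.5, 50.5 and 71.7 FPKM with AI-10-49, against 49.2, 52.2 and 52 FPKM with DMSO. AI-10-49 replicate 2 lay among the DMSO values and the gene did not pass (0.29 ± 0.13 SE, limma adjusted p = 0.0549), while without that library its log2 fold change was 0.44 (limma adjusted p = 3.51e-05), and under quantile normalization 0.57 (limma adjusted p = 3.10e-06). The fit with the replicate number as a block gave limma adjusted p = 0.0212 for GTF2F1. GTF2B, which encodes TFIIB, the bridge between TBP and Pol II, had 40.4, 30.7 and 41.4 FPKM with AI-10-49, against 30.1, 27.4 and 34.6 FPKM with DMSO. Its groups overlapped, and its log2 fold change of 0.27 ± 0.12 (SE, limma adjusted p = 0.0375) did not pass when DMSO replicate 1 or 2 or AI-10-49 replicate 1 or 3 was left out (limma adjusted p = 0.0810 to 0.150), and was 0.41 without AI-10-49 replicate 2. GTF2A2, the small TFIIA subunit, fell, with 21.6, 17.1 and 21.1 FPKM with AI-10-49, against 25.3, 22.9 and 26.4 FPKM with DMSO (log2 fold change -0.31 ± 0.09 SE, limma adjusted p = 0.00500).

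TFIIH opens promoter DNA and carries CDK7, the kinase that phosphorylates the Pol II tail and activates other cyclin-dependent kinases. CDK7 had 42.7, 35.4 and 42.99 FPKM with AI-10-49, against 24.8, 22.7 and 25.9 FPKM with DMSO. Every AI-10-49 library lay above every DMSO library, and the log2 fold change of 0.70 ± 0.09 (SE, limma adjusted p = 1.04e-05) was the largest rise of the 60 tested members with all libraries. Without AI-10-49 replicate 2, GTF2IRD2B (0.87) and GTF2F2 (0.81) rose more than CDK7 (0.78). Under quantile normalization GTF2F2 (0.83) rose more than CDK7 (0.77). GTF2H1 had 30.6, 28.8 and 31.3 FPKM with AI-10-49, against 25.4, 23.99 and 24.2 FPKM with DMSO (log2 fold change 0.29 ± 0.07 SE, limma adjusted p = 0.00125). GTF2H2B, a near-identical copy of GTF2H2 whose reads cannot be assigned with certainty, had 5.45, 5.38 and 5.62 FPKM with AI-10-49, against 4.21, 4.22 and 3.84 FPKM with DMSO (log2 fold change 0.35 ± 0.07 SE, limma adjusted p = 0.000612). The partners of CDK7 in its kinase module, taken from wider lists of transcription machinery, rose as well. CCNH, which encodes cyclin H, had 39.8, 33.9 and 43.8 FPKM with AI-10-49, against 22.9, 19.7 and 22.9 FPKM with DMSO (log2 fold change 0.81 ± 0.10 SE, limma adjusted p = 5.17e-06). MNAT1, the assembly factor of the module, had 45.1, 30.3 and 49.03 FPKM with AI-10-49, against 22.7, 21.98 and 23.1 FPKM with DMSO (log2 fold change 0.82 ± 0.14 SE, limma adjusted p = 9.30e-05). ERCC2, a TFIIH helicase, fell (-0.59, limma adjusted p = 1.75e-06).

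Of the genes of TFIID, which carries TBP to core promoters, 4 of 8 TAF genes rose, 3 fell and 1 did not pass. All tested rows were also split, with 46.2% higher and 49.1% lower. TAF13 had 25.2, 22.9 and 28.4 FPKM with AI-10-49, against 18.1, 14.3 and 16.8 FPKM with DMSO (log2 fold change 0.61 ± 0.09 SE, limma adjusted p = 5.18e-05). TAF2, which contacts the initiator sequence, had 26.96, 24.9 and 28 FPKM with AI-10-49, against 18.3, 16.3 and 17.01 FPKM with DMSO (log2 fold change 0.60 ± 0.07 SE, limma adjusted p = 4.35e-06). Both lay wholly above DMSO, as did TAF3 (0.56), whose protein reads methylated histone H3, and TAF12 (0.32). TAF5, a scaffold of the TFIID core, had 4.66, 4.14 and 4.48 FPKM with AI-10-49, against 6.95, 7.58 and 7.23 FPKM with DMSO (log2 fold change -0.60 ± 0.07 SE, limma adjusted p = 6.03e-06). TAF4 and TAF4B, alternative partners of TAF12, had 14.7, 13.5 and 13.8 FPKM and 21.1, 20.6 and 21.6 FPKM with AI-10-49, against 20.9, 20.9 and 20.04 FPKM and 28.6, 28.2 and 28.98 FPKM with DMSO. Both fell without overlap, by log2 fold changes of -0.53 and -0.42 (limma adjusted p = 4.73e-06 and 3.88e-05). Within each library the ratio of TAF12 to TAF4 was 2.40, 2.31 and 2.74 with AI-10-49, against 1.28, 1.32 and 1.42 with DMSO (exact two-sided permutation p = 0.1, the smallest that 3 against 3 can give). TAF15, an RNA-binding protein that associates with TFIID, had 117, 63.9 and 116 FPKM with AI-10-49, against 133, 128 and 125 FPKM with DMSO. It did not pass (log2 fold change -0.43 ± 0.26 SE, limma adjusted p = 0.129). Without AI-10-49 replicate 2 it was -0.14 (limma adjusted p = 0.0485). Under quantile normalization it was 0.0655 (limma adjusted p = 0.340), and 0.098 (limma adjusted p = 0.134) with that library also left out. TAF5L, the counterpart of TAF5 in the SAGA coactivator, fell like TAF5, with 15.6, 16.3 and 14.2 FPKM with AI-10-49, against 21.2, 19.3 and 21.5 FPKM with DMSO (log2 fold change -0.41 ± 0.07 SE, limma adjusted p = 0.000134).

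TFII-I is a signal-regulated factor that binds initiator and other elements. GTF2I had 20.4, 14.9 and 18.2 FPKM with AI-10-49, against 31.5, 33.7 and 29.6 FPKM with DMSO, a fall without overlap (log2 fold change -0.80 ± 0.10 SE, limma adjusted p = 6.25e-06; -0.69 without AI-10-49 replicate 2). The related GTF2IRD2B had 3.39, 1.35 and 2.76 FPKM with AI-10-49, against 1.09, 1.27 and 1.30 FPKM with DMSO (log2 fold change 0.61 ± 0.18 SE, limma adjusted p = 0.00596). Its change was 0.87 without AI-10-49 replicate 2, which lay close to the DMSO values. GTF2IRD2 had 1.18, 0.781 and 0.833 FPKM with AI-10-49, against 0.409, 0.427 and 0.345 FPKM with DMSO. It was too low to be tested with all libraries under the 1 FPKM filter. Without AI-10-49 replicate 2 it was tested and rose (0.52, limma adjusted p = 0.00116). These genes have near-identical copies or pseudogenes, so their assignment is uncertain and their levels are low apart from GTF2I.

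Most of the Mediator genes with a row rose, in the head, the middle and the tail of the complex. In the head, which contacts Pol II, MED18 had 26.9, 26.4 and 25.3 FPKM with AI-10-49, against 16.9, 16.2 and 17.96 FPKM with DMSO (log2 fold change 0.59 ± 0.07 SE, limma adjusted p = 2.58e-06), and MED6 had 36.6, 32.8 and 36.7 FPKM with AI-10-49, against 28.1, 27.5 and 29.3 FPKM with DMSO (log2 fold change 0.31 ± 0.08 SE, limma adjusted p = 0.00169). MED20, the head partner of MED18, changed by 0.24 (limma adjusted p = 0.00965) and did not pass without DMSO replicate 2 (0.16, limma adjusted p = 0.0600). MED11 was the head gene that fell. It is the lowest Mediator gene, with 4.47, 3.30 and 3.75 FPKM with AI-10-49, against 6.65, 5.10 and 6.18 FPKM with DMSO (log2 fold change -0.53 ± 0.11 SE, limma adjusted p = 0.000425).

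All 4 measured genes of the middle and scaffold rose. MED1, the subunit through which nuclear receptors contact Mediator, had 34.6, 30.6 and 34.8 FPKM with AI-10-49, against 23.6, 22.3 and 20.9 FPKM with DMSO (log2 fold change 0.56 ± 0.08 SE, limma adjusted p = 1.84e-05). MED10 had 29.6, 27.8 and 32.9 FPKM with AI-10-49, against 20.2, 17.04 and 20.7 FPKM with DMSO (log2 fold change 0.62 ± 0.09 SE, limma adjusted p = 2.30e-05). MED14, the backbone of the complex, had 22.4, 22.5 and 23.2 FPKM with AI-10-49, against 16, 15.2 and 14.3 FPKM with DMSO (log2 fold change 0.55 ± 0.06 SE, limma adjusted p = 4.08e-06). Each of these genes had AI-10-49 libraries wholly above the DMSO libraries, as did MED26 (0.37), through which Mediator recruits elongation factors.

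In the subunits grouped here as the tail, which receives activators, MED27 had 13.9, 12.05 and 13.4 FPKM with AI-10-49, against 7.79, 7.53 and 9.90 FPKM with DMSO (log2 fold change 0.59 ± 0.09 SE, limma adjusted p = 5.76e-05) and MED15 had 42.3, 35.9 and 41.9 FPKM with AI-10-49, against 30.9, 28.3 and 28.1 FPKM with DMSO (log2 fold change 0.44 ± 0.09 SE, limma adjusted p = 0.000318). MED24 went the other way, with 28.1, 27.2 and 26.5 FPKM with AI-10-49, against 38.1, 42.5 and 38.4 FPKM with DMSO (log2 fold change -0.52 ± 0.08 SE, limma adjusted p = 3.05e-05). MED30, the most abundant Mediator gene, had 64.1, 45.2 and 70.2 FPKM with AI-10-49, against 45.9, 40.7 and 51.6 FPKM with DMSO. Its groups overlapped through AI-10-49 replicate 2, and its log2 fold change of 0.35 (limma adjusted p = 0.0400), 0.54 without that library and 0.58 under quantile normalization, did not pass when DMSO replicate 1 or 2 or AI-10-49 replicate 1 or 3 was left out (limma adjusted p = 0.0821 to 0.158).

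The kinase module of Mediator, which docks reversibly and regulates its contact with Pol II, was measured through CDK8. It had 24.03, 25.8 and 23.6 FPKM with AI-10-49, against 14.4, 15.8 and 15.3 FPKM with DMSO. The DMSO libraries all lay lower, and the log2 fold change was 0.66 ± 0.07 (SE, limma adjusted p = 1.09e-06). Its cyclin CCNC had 40.8, 38.4 and 46.9 FPKM with AI-10-49, against 26.6, 27.7 and 28.6 FPKM with DMSO (log2 fold change 0.58 ± 0.09 SE, limma adjusted p = 3.66e-05). Its paralogue CDK19 had 17.7, 17.9 and 18.8 FPKM with AI-10-49, against 13.7, 12.5 and 12.9 FPKM with DMSO (log2 fold change 0.45 ± 0.06 SE, limma adjusted p = 2.36e-05). Both come from the wider lists, and both lay above DMSO in every library.

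P-TEFb consists of the kinase CDK9 and cyclin T, and its subunit genes went in opposite directions. CDK9 had 15.1, 13.5 and 13.8 FPKM with AI-10-49, against 17.8, 19.4 and 18.6 FPKM with DMSO, a fall without overlap (log2 fold change -0.37 ± 0.07 SE, limma adjusted p = 0.000171). CCNT1, its main cyclin, had 21.8, 22.9 and 23.4 FPKM with AI-10-49, against 17.5, 16.8 and 15.6 FPKM with DMSO (log2 fold change 0.43 ± 0.07 SE, limma adjusted p = 5.11e-05). CCNT2, the alternative cyclin, had 11.3, 12.5 and 12.7 FPKM with AI-10-49, against 10.2, 10.1 and 9.52 FPKM with DMSO (log2 fold change 0.27 ± 0.07 SE, limma adjusted p = 0.00215). Within each library the ratio of CCNT1 to CDK9 was 1.44, 1.70 and 1.70 with AI-10-49, against 0.980, 0.868 and 0.839 with DMSO, and that of CCNT2 to CDK9 was 0.748, 0.923 and 0.923 with AI-10-49, against 0.574, 0.520 and 0.513 with DMSO. The exact two-sided permutation p was 0.1 for each of these and for the TAF12 ratio, 3 ratios in all, and 3 against 3 cannot give a smaller one. Each ratio sets a gene wholly above DMSO over a gene wholly below it. The ratios therefore had to separate, and these p-values add nothing to the changes of the single genes.

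**Figure D3:**
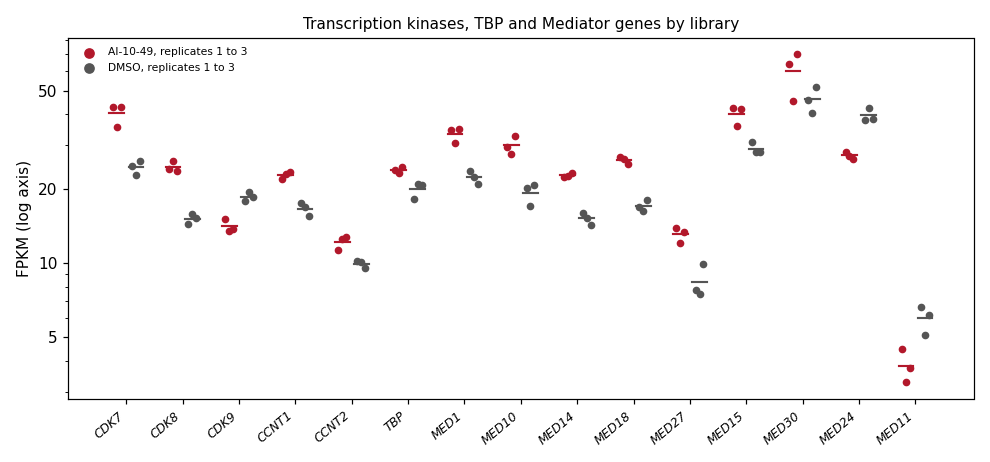
FPKM (vertical log axis) of 15 genes for transcription kinases, cyclin T, TBP and Mediator in the 3 AI-10-49 libraries (red, left) and the 3 DMSO libraries (grey, right), with horizontal lines at the group means. CDK7 and CDK8 lie higher with AI-10-49, CDK9, MED24 and MED11 lie lower, and the groups of MED30 overlap.

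The same division can be seen library by library. For each library the median of log2(FPKM + 1) over a complex was set against the DMSO mean of its genes. Pol I core genes stood at -1.06, -1.17 and -1.21 with AI-10-49, and Pol III core genes at -0.54, -0.54 and -0.63. Mediator genes stood at 0.53, 0.39 and 0.55 with AI-10-49. The 3 TFIIH genes stood at 0.34, 0.33 and 0.38. In each AI-10-49 library this TFIIH median is the value of GTF2H2B alone, whose reads cannot be assigned with certainty. TFIID TAF genes had no common direction, at 0.11, -0.14 and 0.14. All rows of the table stood at -0.20, -0.23 and -0.20 with AI-10-49, and in no complex drawn did a DMSO library lie more than 0.15 from the DMSO mean.

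**Figure D4:**
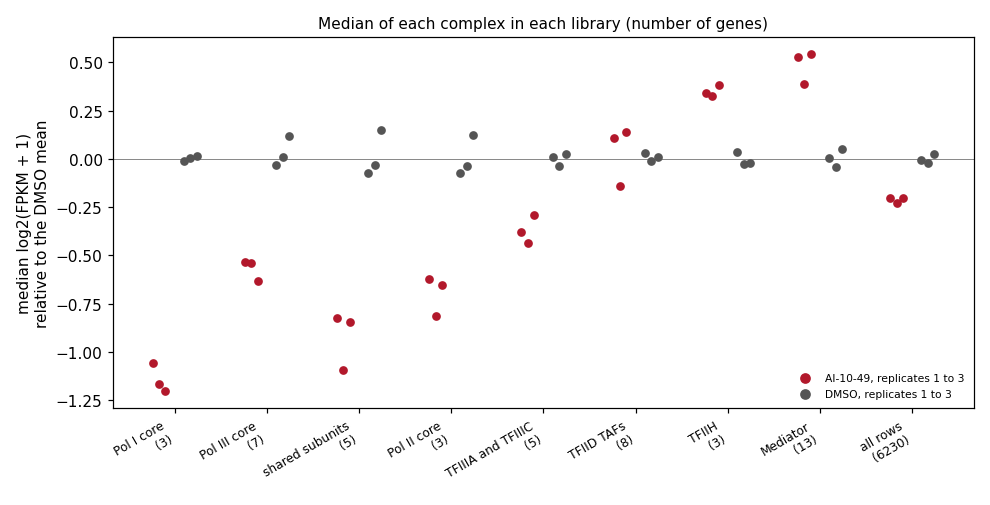
Median log2(FPKM + 1) of the genes of each complex relative to their DMSO mean (vertical axis), 1 point for each AI-10-49 library (red, left) and each DMSO library (grey, right), with the number of genes under each name. Pol I core genes lie lowest with AI-10-49 (-1.06 to -1.21), Mediator genes highest (0.39 to 0.55) and all rows between them (-0.20 to -0.23).

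A log2 fold change of -1 or less was reached by 7 members, POLR1A, POLR1B, POLR1C, POLR2L, POLR3K and GTF3C6 among them, against 7.62% of all tested rows. No member that rose reached 1, against 5.79% of all tested rows. All 7 encode subunits or factors that Pol I or Pol III uses, though POLR2L is a subunit of Pol II as well. POLR2L did not reach -1 without AI-10-49 replicate 2 (-0.87) or under quantile normalization (-0.87). GTF3C6 did not reach it under quantile normalization (-0.92).

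Members that rose had a median gene span of 41.9 kb and members that fell 20.3 kb (26 and 30 genes, GENCODE release 29, lengths only). Among all table rows of 1 symbol the medians were 45.4 kb for rises and 23.1 kb for falls, while median transcript length was 2427 nt for members that rose and 3766 nt for members that fell, against 3729.5 nt for all rows that rose and 3200 nt for all rows that fell. In gene span the members have the order of the table, and in transcript length the opposite one. Exons of 11 of the 61 members overlap a protein-coding gene in that annotation. The sources used here do not say whether counting used strand, so fragments of such pairs cannot be told apart. Among the leading members this touches POLR2I (with TBCB, a longest exon overlap of 361 bases), GTF3C4 (with DDX31, 367 bases) and POLR1C (with XPO5, 100 bases, and YIPF3, 45 bases). The longest overlap of any member was that of MED26 with AC008764.1 (1040 bases, on the same strand). TBCB, DDX31 and XPO5 changed by -0.62, -0.75 and -1.23 on the log2 scale (highest limma adjusted p = 0.000273), and YIPF3 by 0.35 (limma adjusted p = 0.0267).

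Other genes of the transcription machinery were taken from 9 lists of 113 symbols, of which 48 had a row, and 27 rose, 20 fell and 1 did not pass (background as above, 46.2% higher and 49.1% lower). The largest falls among the 48 were in Pol I genes. CD3EAP, a Pol I subunit, had 0.534, 0.518 and 0.429 FPKM with AI-10-49, against 3.88, 4.09 and 4.42 FPKM with DMSO (log2 fold change -1.78 ± 0.10 SE, limma adjusted p = 4.46e-09); its exons overlap those of ERCC1 on the other strand. UBTF, which holds ribosomal genes in an active state, had 33.4, 28.98 and 33.3 FPKM with AI-10-49, against 69.8, 72.5 and 75.4 FPKM with DMSO (log2 fold change -1.16 ± 0.10 SE, limma adjusted p = 2.14e-07). TTF1, which ends Pol I transcription, rose (0.46).

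Pol III factors split into 2 higher and 3 lower. SNAPC1, of the complex that starts small nuclear RNA genes, had 16.6, 16.7 and 16.7 FPKM with AI-10-49, against 9.79, 9.35 and 9.74 FPKM with DMSO (log2 fold change 0.73 ± 0.06 SE, limma adjusted p = 1.66e-07). BRF2 and BRF1 are related TFIIIB subunits that serve different Pol III promoter types. BRF2 had 32.1, 29.5 and 36.6 FPKM with AI-10-49, against 18.9, 20.6 and 22.7 FPKM with DMSO, a rise (0.63 ± 0.09 SE, limma adjusted p = 2.45e-05), while BRF1 fell (-0.40). SNAPC4 and ZNF143 fell (-0.59 and -0.57).

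Regulators of P-TEFb and the super elongation complex rose in 8 of 10 genes. HEXIM2 and HEXIM1, which hold P-TEFb inactive, had 6.71, 7.56 and 7.03 FPKM and 23.99, 19.5 and 23.4 FPKM with AI-10-49, against 3.93, 3.89 and 4.17 FPKM and 16, 15.9 and 15.98 FPKM with DMSO. Both lay wholly above DMSO (0.70 and 0.45 on the log2 scale, highest limma adjusted p = 0.000120). EAF1, a partner of ELL, changed by 0.60. MLLT1, a reader of acetylated histones, had 18.1, 15.96 and 16.8 FPKM with AI-10-49, against 26.1, 26.4 and 26.04 FPKM with DMSO, a fall (-0.60 ± 0.07 SE, limma adjusted p = 2.68e-06). Pausing and elongation factors rose in 4 and fell in 7 of 11 genes. Among the falls, that of the elongin gene TCEB2 (-0.66, limma adjusted p = 0.0379), did not pass when any single DMSO library was left out (limma adjusted p = 0.0747 to 0.135) or under quantile normalization (-0.20, limma adjusted p = 0.0716), and was -0.34 without AI-10-49 replicate 2. SUPT16H, a histone chaperone, had 51.7, 41.7 and 49.7 FPKM with AI-10-49, against 80.01, 77.5 and 79.1 FPKM with DMSO (log2 fold change -0.72 ± 0.12 SE, limma adjusted p = 9.97e-05; -0.42 under quantile normalization). CDC73, of the PAF complex, had 19.8, 19.7 and 22.5 FPKM with AI-10-49, against 13.2, 11.98 and 12.3 FPKM with DMSO (log2 fold change 0.68 ± 0.07 SE, limma adjusted p = 1.46e-06).

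Integrator, which cleaves nascent RNA at small nuclear RNA genes and paused promoters, rose in 4 of 5 genes. INTS12 had 34.9, 33.04 and 38.3 FPKM with AI-10-49, against 16.8, 16.3 and 17.7 FPKM with DMSO (log2 fold change 1.02 ± 0.07 SE, limma adjusted p = 5.24e-08). Its exons overlap those of GSTCD on the other strand (233 bases), a gene that changed by 0.48 (limma adjusted p = 2.48e-05). INTS7 had 42.5, 36.5 and 44.9 FPKM with AI-10-49, against 21.7, 20.1 and 21.6 FPKM with DMSO (log2 fold change 0.93 ± 0.08 SE, limma adjusted p = 4.67e-07). Of 6 genes for polymerase assembly and tail phosphatases, 3 rose, 2 fell and 1, SSU72, did not pass. The phosphatase gene CTDSPL had 16.05, 15.4 and 17.2 FPKM with AI-10-49, against 31.2, 29.7 and 32.1 FPKM with DMSO (log2 fold change -0.90 ± 0.07 SE, limma adjusted p = 8.37e-08). The assembly factor RPAP1 had 24.1, 23.9 and 22.8 FPKM with AI-10-49, against 15.99, 16.5 and 16.8 FPKM with DMSO (log2 fold change 0.50 ± 0.06 SE, limma adjusted p = 7.26e-06). In mitochondrial transcription 1 gene rose and 2 fell. TFB2M, the initiation factor of POLRMT, had 26.2, 24.1 and 24.8 FPKM with AI-10-49, against 38, 36.4 and 42.1 FPKM with DMSO (log2 fold change -0.61 ± 0.08 SE, limma adjusted p = 9.94e-06), and MTERF, a termination factor, had 13.7, 15.1 and 15.1 FPKM with AI-10-49, against 11.1, 11.1 and 11.2 FPKM with DMSO (log2 fold change 0.36 ± 0.06 SE, limma adjusted p = 0.000143).

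**Figure D5:**
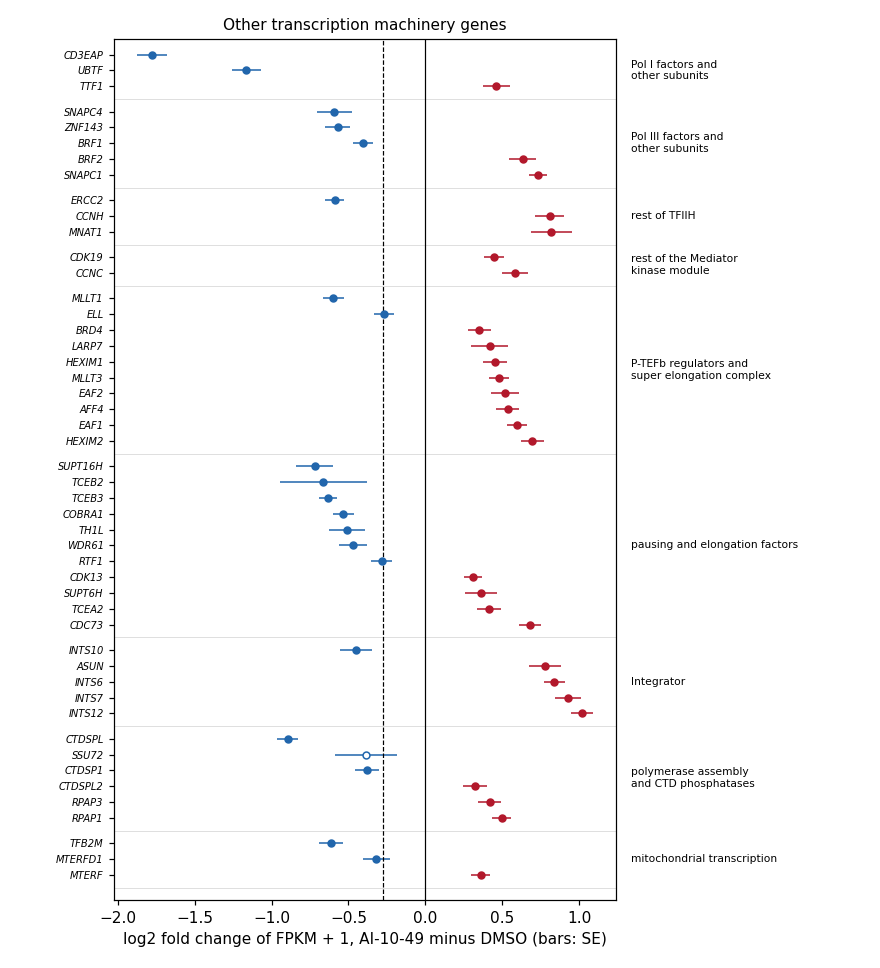
Log2 fold change of FPKM + 1, AI-10-49 minus DMSO (horizontal axis, bars are SE), of the 48 other transcription machinery genes by list, with rises in red, falls in blue and the gene not past the threshold as an open circle; the dashed line is the median of all rows (-0.28). CD3EAP and UBTF lie lowest and INTS12 highest.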

How the data were processed

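Libraries of ME-1 RNA (TruSeq RNA kit) were read in pairs of 90 bp, per the labels and the series' design text. The authors' deposited table gives FPKM, 1 column for each of 6 libraries, as per the file headers; hg19, Cuffdiff, Cufflinks 2.2.0 and Bowtie2 2.1.0 are named in the submitters' processing notes. The columns named control and treated were read as DMSO and AI-10-49, and their numbers as the replicate numbers of the labels. Of 6339 rows, 198 name several genes. Nearly all rows differ between the groups, and the sources used here do not state how rows were selected, so the p-values belong to a selected table. Depth is unknown, and because FPKM are no counts a count test was not run.

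The 6230 rows whose mean reached 1 FPKM in either group were fitted as log2(FPKM + 1) with limma 3.58.1 in R 4.3.3 (moderated, mean-variance trend, two-sided, Benjamini-Hochberg over all rows, threshold 0.05), AI-10-49 minus DMSO; this scale understates changes of low genes. The procedure was tested on simulated data with few changed genes and independent noise. Nearly all rows differ here, so that test does not cover data like these. Ratios, motif searches and plots used Python 3.11.15 with pandas 2.3.3, SciPy 1.17.1, Matplotlib 3.10.9 and NumPy 2.4.6. The members, complexes and lists were chosen with earlier results of these data known. The genes given in full are up to 3 of largest change in each complex, every member that did not pass, CDK7, CDK8, CDK9, CCNT1, CCNT2 and TBP, and up to 2 of each wider list. POLR2H, POLR3F, TAF4, TAF4B, MED30 and HEXIM1 lie outside this rule and were chosen after their values were seen. Others are given by log2 fold change only. A member gene that enters the counts and medians is not reported here by name or drawn on its own. Alternatives were pseudocounts of 0.1 and 0.5, no filter or 5 FPKM, each library left out in turn, median scaling, quantile normalization (also without AI-10-49 replicate 2), replicate number as block, no trend, and calls at 0.01 or at a log2 fold change of at least 1.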

Additional observations from a re-analysis of the deposited data

How the results depend on the processing

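All alternatives were planned. Rows past the threshold numbered 5730 to 6067 when single libraries were left out, members higher 23 to 28 and lower 29 to 32, and genes of TFIIA, TFIIB, TFIIE and TFIIF that rose 1 to 3. That last count was 2 with all libraries, and 1 without the mean-variance trend and at a threshold of 0.01. A minimum log2 fold change of 1 takes out small changes by construction and left 836 rows, 0 members higher and 7 lower (2 shared subunits, 2 Pol III core genes, 1 TFIIIC gene and the rest of Pol I), 0 genes in Mediator, Pol II core, TFIIH, TFIID, P-TEFb and the other Pol II factors, and 1 higher and 2 lower among the other machinery genes. Of 899 values for 60 members under other settings, 871 kept their direction and side of the threshold, 16 lost the call, 7 gained it and 5 changed sign. The changes of sign were all under quantile normalization, in POLR2K (0.036, and 0.13 with AI-10-49 replicate 2 also left out), GTF3A (0.019) and TAF15 (0.0655 and 0.10), none of which had passed; POLR2K passed as higher at 0.13 (limma adjusted p = 0.0226). Under quantile normalization the log2 fold changes of LARP7 and SUPT6H grew by over 1.5 times. Those of SUPT16H, TH1L, TCEB2 and INTS10 shrank by over 1.5 times, without a change of sign. Among the other machinery genes SSU72 (-0.39, not past the threshold) changed sign there (0.0673 and 0.0604). The cause was not tested. With the replicate number as a block 6015 rows passed, with 27 members higher and 30 lower. The deviations of same-numbered libraries from their group means gave r of -0.150, 0.147 and 0.247 across genes, so the numbers were not treated as pairs. Without a known depth, the precision of low values such as GTF2IRD2B is given by the spread between libraries alone.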

Other observations

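A total of 6 rows that name a polymerase or general factor gene together with other genes were outside the rule, and their values cannot be assigned to 1 gene. The row of NUDT17 and POLR3C, a Pol III subunit, had 72.7, 58.1 and 71.9 FPKM with AI-10-49, against 37.5, 36.8 and 38.3 FPKM with DMSO (log2 fold change 0.82 ± 0.11 SE, limma adjusted p = 1.31e-05). The row of GCOM1, MYZAP and POLR2M, a Pol II-associated subunit, had 29.4, 26.6 and 30.7 FPKM with AI-10-49, against 20.6, 19.6 and 22.02 FPKM with DMSO (0.46 ± 0.07 SE, limma adjusted p = 8.11e-05). Both rose, unlike most polymerase genes with a row of their own. The row of GTF2H2C and GTF2H2D, copies of a TFIIH gene, changed by 0.33 and that of GTF2H4, a TFIIH gene, and VARS2 by -0.32 on the log2 scale. The row of POLR2J2 and UPK3BL did not pass with all libraries (0.24, limma adjusted p = 0.186) and was 0.51 without AI-10-49 replicate 2 (limma adjusted p = 2.31e-05). The row of the GTF2I pseudogene GTF2IP1 stood at 0.710, 0.570 and 0.836 FPKM with AI-10-49, against 1.30, 1.32 and 1.04 FPKM with DMSO.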
